A study of Mus musculus with 73 samples.

Results

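The genes described here are 9 that the visceral endoderm is known for: Afp, Ttr, Apoa1, Apob, Apoe, Rbp4 and Trf, which encode secreted carrier proteins, and Amn and Cubn, which encode the 2 subunits of an uptake receptor. They were chosen by name, and 9 of 9 were found among the 30546 genes of the table. The visceral endoderm is the epithelium that covers both the epiblast, from which the embryo proper arises, and the extraembryonic ectoderm (ExE), a trophoblast tissue that contributes to the placenta. It takes up maternal proteins and lipids from its surroundings by endocytosis and secretes carrier proteins much as the liver does later. Transcripts of these genes in dissected epiblast or ExE can therefore come from visceral endoderm cells that stayed with the tissue or from the tissue itself.

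Single mouse embryos at E6.5 gave 72 RNA libraries in 12 groups, each from the epiblast or the ExE of 1 embryo. Per the labels' protocols, each embryo was bisected at the boundary of the 2 tissues, the visceral endoderm was removed with trypsin and pancreatin and a narrow capillary, and a small number of cells per tissue was lysed. The wild-type BDF1xCAST cross (labelled Bdf1xCast, mother first) gave 7 epiblast and 7 ExE libraries, and the reciprocal CASTxBDF1 cross (CastxBdf1) gave 4 and 4. The 4 knockouts were made in BDF1xCAST zygotes by injection of Cas9 mRNA and several guide RNAs, and are named after the gene: Dnmt1, the maintenance DNA methyltransferase (3 epiblast and 3 ExE libraries), G9a-Glp, the histone H3 lysine methyltransferases encoded by Ehmt2 and Ehmt1 (6 and 8), Rnf2, of Polycomb repressive complex PRC1 (6 and 5), and Eed, of PRC2 (9 and 10). All BDF1xCAST embryos, knockouts included, came from sperm injection into oocytes of superovulated BDF1 females and were transferred to CD-1 foster females, while CASTxBDF1 embryos came from natural mating, so the direction of the cross and the mode of fertilisation cannot be told apart. BDF1 is a laboratory hybrid strain and CAST a wild-derived strain, and the deposited counts hold only reads over polymorphisms that tell them apart. A gene's count therefore depends on how many polymorphisms it carries, and levels are compared between libraries and never between genes.

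The libraries held 1141414 to 17653087 such reads in epiblast (median 2528135) and 1710457 to 10263280 in ExE (median 2911275), and levels are given as CPM, the count scaled to the total of these reads in its library. The targeted transcript was below every wild-type BDF1xCAST library in 3 of 3 Dnmt1, 9 of 9 Eed and 4 of 6 Rnf2 epiblast libraries, and in 2 of 3 Dnmt1, 10 of 10 Eed and 0 of 5 Rnf2 ExE libraries. Ehmt1 was below in 2 of 6 G9a-Glp epiblast and 5 of 8 ExE libraries, and Ehmt2 in 0 of 6 and 6 of 8. The transcript thus did not bear out every label, above all in the ExE libraries labelled Rnf2 and the epiblast libraries labelled G9a-Glp, and those directions rest on the labels. Small insertions or deletions can leave a transcript in place, and this check reads RNA only. The genotype comparisons of 1 tissue share their 7 wild-type libraries.

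The members lie on different chromosomes or far apart, so they are not one gene cluster. On mm10 the authors' table places Afp at chr5:90490714-90508907, Apoa1 at chr9:46228630-46230469, Apob at chr12:7977634-8016839, Apoe at chr7:19696244-19699188, Amn at chr12:111271096-111276426, Rbp4 at chr19:38116620-38125321 and Trf at chr9:103208876-103230286. Cubn, at chr2:13276338-13491876, overlaps the gene model Gm13270, and Ttr overlaps Gm16090, so reads of these pairs cannot be told apart. RefSeq promoters on GRCm38.p6 (250 bases before the start site) were matched for 7 of the 9 members, not for Ttr or Trf. The promoters of Afp, Apoe and Amn are shown as those of 3 genes with results in ExE. That of Apoa1 is shown because it stood for the members at or near 0 there. Rbp4 also had results in ExE, and the motif match in its promoter is given below without the sequence. CpG dinucleotides, the sites that DNA methyltransferases act on, are in capitals, 5′ to 3′ on the gene's strand.
Afp, chr5:90490464-90490713, plus strand: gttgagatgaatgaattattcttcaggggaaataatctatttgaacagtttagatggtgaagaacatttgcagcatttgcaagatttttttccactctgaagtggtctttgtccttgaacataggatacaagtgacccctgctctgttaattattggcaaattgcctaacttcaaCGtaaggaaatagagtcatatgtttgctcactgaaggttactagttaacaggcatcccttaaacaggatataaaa
Apoa1, chr9:46228380-46228629, plus strand: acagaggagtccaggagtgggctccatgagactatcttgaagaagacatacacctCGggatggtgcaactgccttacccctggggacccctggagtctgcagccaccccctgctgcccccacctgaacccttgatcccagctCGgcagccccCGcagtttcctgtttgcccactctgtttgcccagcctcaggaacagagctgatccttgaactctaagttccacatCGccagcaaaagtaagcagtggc
Apoe, chr7:19699189-19699438, minus strand: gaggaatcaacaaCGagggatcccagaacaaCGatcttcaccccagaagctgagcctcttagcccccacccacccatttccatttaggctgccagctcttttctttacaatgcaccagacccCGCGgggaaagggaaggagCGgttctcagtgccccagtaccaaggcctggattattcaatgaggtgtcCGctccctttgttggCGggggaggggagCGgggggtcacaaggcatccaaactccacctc
Amn, chr12:111270846-111271095, plus strand: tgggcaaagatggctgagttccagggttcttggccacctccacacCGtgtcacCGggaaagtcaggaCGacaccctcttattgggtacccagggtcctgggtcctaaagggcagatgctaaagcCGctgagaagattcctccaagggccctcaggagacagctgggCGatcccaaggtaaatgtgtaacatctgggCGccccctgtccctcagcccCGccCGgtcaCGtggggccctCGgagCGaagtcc
These stretches held 1 CpG in Afp, 4 in Apoa1, 8 in Apoe and 11 in Amn. Over 32851 RefSeq promoters of the same length the median was 6, with quartiles of 2 and 16, and 92.1% held at least 1. The Afp stretch was poorer in CpG than most, with 7.80% of promoters holding fewer. Both strands were searched for 5 motifs of endoderm regulators and core promoters. These were HNF1 (GTTAAT, any base, then ATTAAC), CAAAGTCCA for HNF4, AGATAA for GATA factors, TGTTTAC for FOXA and the TATA box TATAAA. They occurred in 0.00913%, 0.384%, 9.99%, 3.17% and 12.4% of all promoters, and no motif contains another. In the 4 printed promoters the only full match was TATAAA in Afp, with its first base 7 bases before the annotated start. The Afp stretch also holds GTTAAT, the opening letters of the HNF1 motif, without the rest of the motif. Partial matches were not searched for. In the Rbp4 promoter at the start site of the deposited gene, TGTTTAC was matched, with its first base 241 bases before the start. A further RefSeq promoter of Rbp4 held no TGTTTAC. It held 28 CpG, and TATAAA with its first base 28 bases before the start. TATAAA was also matched in a further promoter of Apoe that is not shown. A match is a string of letters, and none of these data bear on binding.

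In most epiblast libraries the 9 genes were low, and in a few they were high together. First, 1 CPM was added to the wild-type median of the tissue. A library was counted as high for a member when its CPM exceeded 5 times that sum. By this measure 23 of 35 epiblast libraries were high for 0 members, 5 for 1, 3 for 3, 2 for 4, 1 for 5 and 1 for all 9. The library high for all 9 was the wild-type CASTxBDF1 epiblast of embryo 2, and the one high for 5 was the wild-type BDF1xCAST epiblast of embryo 8. In ExE, 29 of 37 libraries were high for 0 members and 8 for 1, and no ExE library was high for 2 or more. The cut-off was never under 5 CPM. Ttr, Apoa1, Apob, Cubn and Trf stayed under 5 CPM in every ExE library, so they could not be counted there. The ExE counts therefore cannot be set against those of epiblast.

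**Figure D1:**
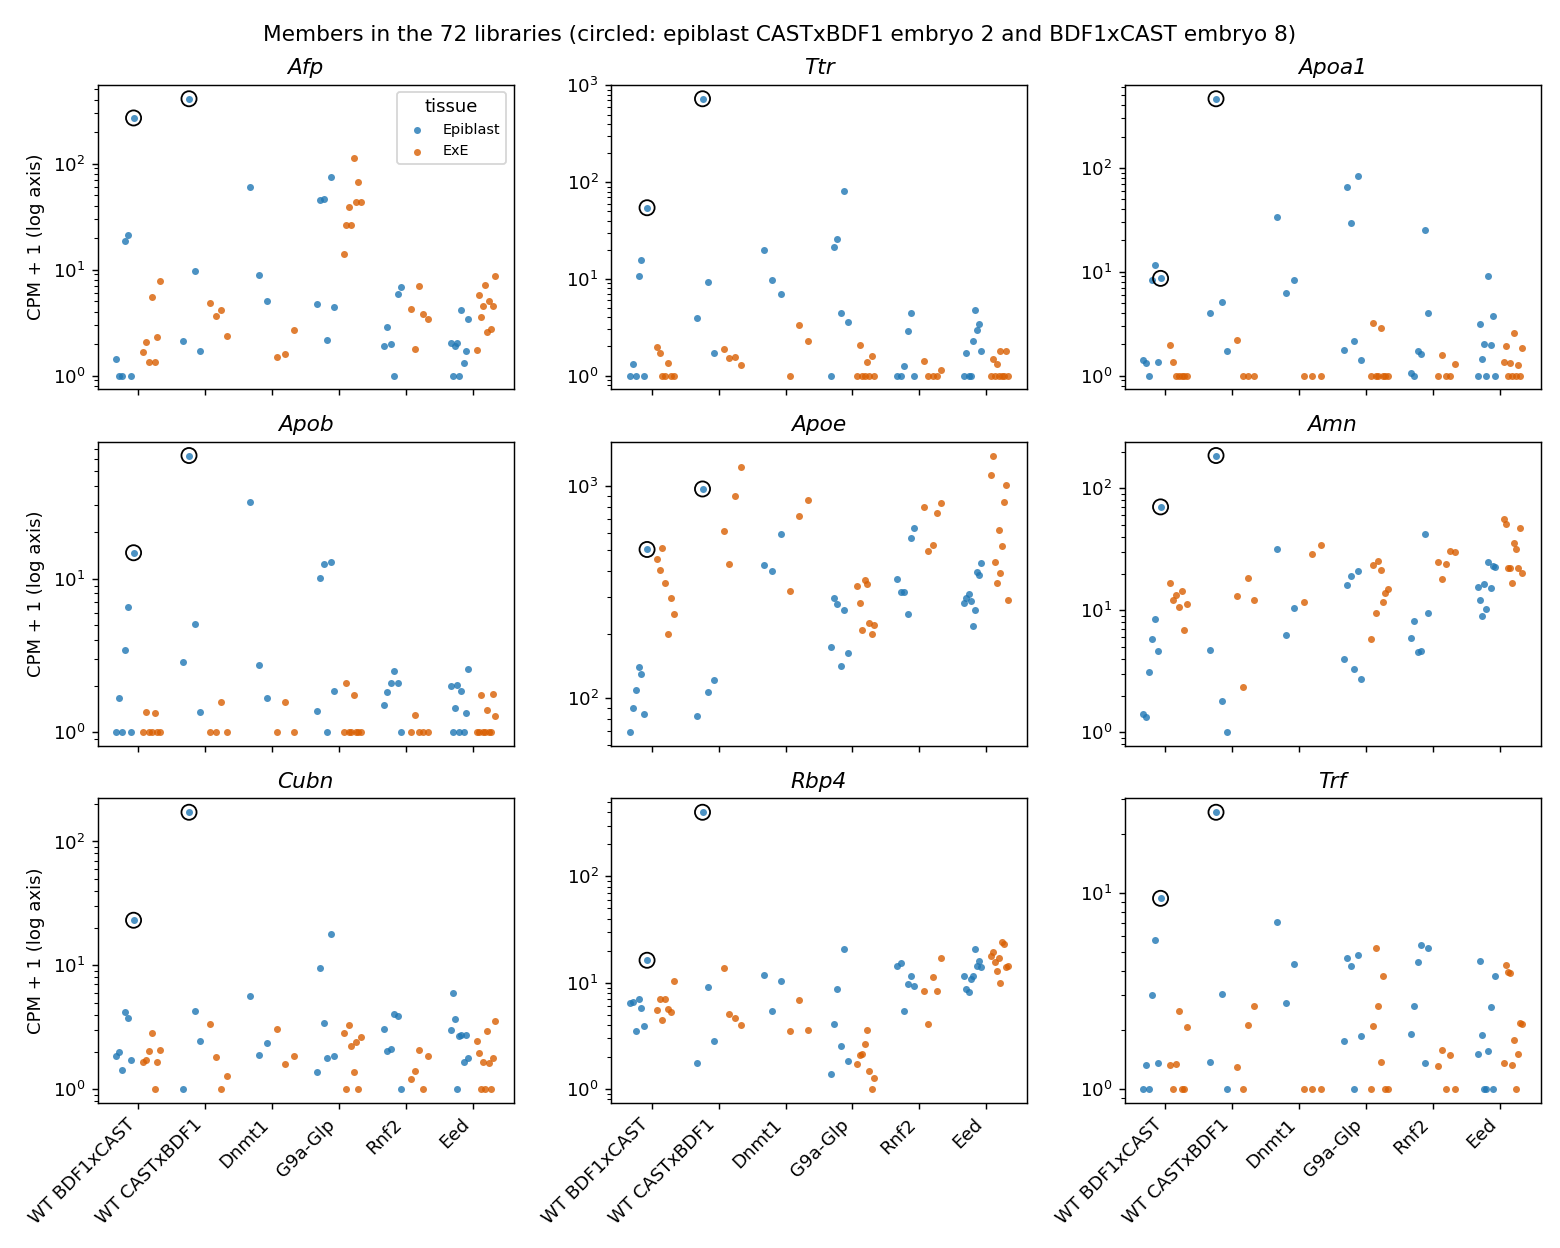
Level of each of the 9 genes (CPM + 1 on a log axis) in every library of the 12 groups, 1 point per library, blue for epiblast and orange for ExE. Circles mark CASTxBDF1 embryo 2 and BDF1xCAST embryo 8. In epiblast the same libraries, CASTxBDF1 embryo 2 above all, stand high for gene after gene, and in ExE the 8 G9a-Glp libraries stand apart for Afp.

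The 2 libraries that stood apart show how large the joint rise was. Afp, an albumin-like fetal serum protein, was at 1.11, 408, 8.61 and 0.724 CPM in CASTxBDF1 epiblast of embryos 1 to 4. Ttr, the carrier of thyroid hormone and of retinol-binding protein, was at 2.97, 727, 8.20 and 0.724 CPM in the same libraries. Apoa1, the main protein of high-density lipoprotein, was at 2.97, 461, 4.10 and 0.724 CPM. In all 3 genes embryo 2 was far above the other 3 embryos, which lay under 10 CPM. Apob, the structural protein of low-density lipoprotein, reached 62.1 CPM in embryo 2 against 0.362 to 4.10 CPM in the others. Rbp4, the serum carrier of retinol, reached 399 CPM against 0.742 to 8.20 CPM, and Trf, the iron carrier transferrin, 24.8 CPM against 0 to 2.05 CPM. The receptor subunits followed the secreted proteins. Amn, which brings the receptor to the membrane, was at 185 CPM in embryo 2 against 0 to 3.71 CPM, and Cubn, which binds the ligands, at 171 CPM against 0 to 3.28 CPM. Apoe, the apolipoprotein that lipoprotein receptors recognise, was at 971 CPM against 81.3 to 121 CPM, so the other 3 embryos lay close together.

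In wild-type BDF1xCAST epiblast, embryo 8 held the highest level of 8 of the 9 members. Afp was at 268 CPM there and at 0 to 20.2 CPM in the other 6 embryos, with 3 libraries at 0. Amn was at 69.4 CPM against 0.330 to 7.52 CPM, Cubn at 22.1 against 0.419 to 3.23 CPM, and Apoe at 502 against 67.9 to 139 CPM. Ttr was at 53.4 CPM against 0 to 14.6 CPM, Apob at 13.7 against 0 to 5.54 CPM, and Rbp4 at 15.2 against 2.52 to 6.06 CPM. Trf was at 8.39 CPM against 0 to 4.75 CPM. Apoa1 was the exception, at 7.62 CPM in embryo 8 and 10.7 CPM in embryo 6. A count of 0 in one of these libraries allows up to 3 reads, which was 0.170 to 2.63 CPM over the 72 libraries, and this limit covers counting error only.

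Genes of the visceral endoderm outside the 9 moved with them. Lists of 26 regulators, other secreted proteins and other uptake genes of the visceral endoderm were summed, of which 23 were in the table. The sum was 5330 CPM in CASTxBDF1 epiblast of embryo 2, against 78.9 to 193 CPM in the other 3 embryos, and 21 of 23 genes had a read there. In BDF1xCAST epiblast it was 682 CPM in embryo 8 and 93.5 to 334 CPM in the others. Apoc2, a secreted apolipoprotein, reached 3731 CPM and Hnf4a, a regulator that defines the visceral endoderm, 67.1 CPM in CASTxBDF1 embryo 2, and Hnf4a was at 0 in the other 3. Whether visceral endoderm cells stayed on these epiblasts was not tested. In bulk tissue, fewer cells of a type and less RNA per cell cannot be told apart.

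Across the 35 epiblast libraries each member was compared with the summed level of these 23 other genes, both as log2(CPM + 1) deviations from the group mean. Pearson's r was 0.79 for Apoa1, 0.82 for Apob, 0.83 for Trf, 0.85 for Rbp4 and Cubn, 0.86 for Afp and Apoe, and 0.88 for Ttr and Amn. Spearman's rho ran from 0.61 for Rbp4 to 0.87 for Afp. Over the 18 relations computed, permutation tests gave adjusted p-values of at most 0.00028 for r and 0.00278 for rho in epiblast, and the smallest p that 100000 permutations can give is 1e-05. The members and lists were chosen with earlier results of these data known, which these p-values do not take into account. Without the 2 libraries farthest from the median, r was between 0.66 for Apoe and 0.82 for Afp. The group means were not taken again without these 2 libraries. They still shape the deviations of the rest of their groups, so this r does not show what holds without them. In the 37 ExE libraries r lay between -0.43 for Rbp4 and 0.01 for Cubn. Of the 9 genes in ExE, 1 passed the test, Rbp4, which was lower where the sum was higher (r = -0.43, permutation adjusted p = 0.0264; rho = -0.38, adjusted p = 0.0654; r = -0.39 without the 2 farthest libraries). It depended on the setting: r was -0.91 in the 11 wild-type libraries alone (permutation adjusted p = 0.00188), -0.32 with a pseudocount of 10 (permutation adjusted p = 0.158), 0.15 with the median of the deviations (permutation adjusted p = 0.484) and -0.04, untested, without Cited1 and Folr1. The ExE sum was made up mainly of Cited1 and Folr1, with 61.7% and 31.2% of it in the wild-type BDF1xCAST libraries. Which cells gave these reads was not tested. With the median of the deviations in place of the sum, r in ExE ran from -0.13 for Cubn to 0.50 for Apoa1. Apoa1 and Apob passed there with positive r (0.50 and 0.43, permutation adjusted p = 0.0125 and 0.0445), and both had few reads in ExE.

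**Figure D2:**
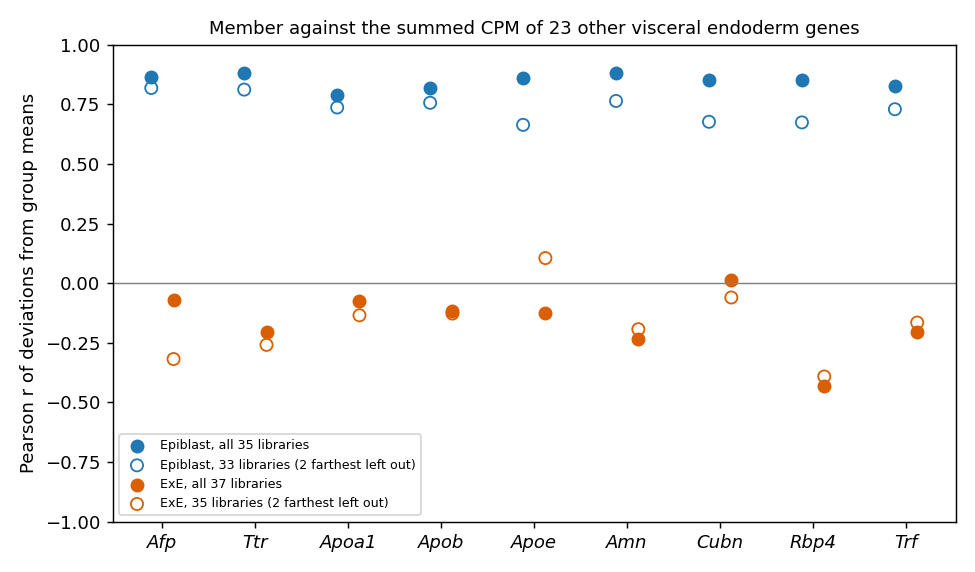
Pearson's r (vertical axis) between each member and the summed level of 23 other visceral endoderm genes, as log2(CPM + 1) deviations from the group mean, over 35 epiblast (blue) and 37 ExE (orange) libraries. Filled points use all libraries, and open points leave out the 2 farthest with the group means unchanged. With all libraries, r lies between 0.79 and 0.88 in epiblast for the 9 genes and between -0.43 and 0.01 in ExE.

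The members also moved with each other in epiblast and less so in ExE, which is given as a description over libraries that share a protocol and, in part, an embryo. Over the 36 pairs of members, r of the deviations from the group mean ran from 0.65 to 0.90 in epiblast and from -0.38 to 0.57 in ExE. The highest ExE pairs were Apoe with Amn (0.57), Ttr with Apoa1 (0.51) and Ttr with Apob (0.50), and the last 2 pairs rest on genes at a few reads. On the levels themselves, log2(CPM + 1) with no group mean taken off, r between members in epiblast ran from 0.34 (Apoe with Apob) to 0.91 (Afp with Apob). On this scale the gene most like 5 of the members, over 9366 genes and 35 epiblast libraries, was another secreted protein. Spink1, a secreted protease inhibitor, came first for Afp (r = 0.89), Ttr (0.93), Apoa1 (0.90) and Apob (0.87), and Apoc2 for Trf (0.71). Apoe was placed elsewhere, nearest to Eda2r (0.83), Krt8 (0.82) and Ccng1 (0.82). Amn was nearest to Podxl (0.81), Rbp4 to Nrk (0.79), and Cubn to its overlapping gene Gm13270 (0.98) and then Clic6 (0.82). In ExE the neighbours were different genes, Efhc2 for Afp (0.89), Mgarp for Apoe (0.82), Igdcc3 for Amn (0.79) and 2210011C24Rik for Rbp4 (0.87), and the other 5 members had none above 0.61.

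In ExE most members were near the limit of detection. In the 7 wild-type BDF1xCAST ExE libraries Ttr, Apoa1 and Apob had a median of 0 CPM, with highest values of 0.982, 0.982 and 0.358 CPM. Cubn had a median of 0.717 CPM and a highest value of 1.86 CPM, and Trf 0.327 and 1.49 CPM. These 5 genes stayed under 5 CPM in each of the 37 ExE libraries, with Trf reaching 4.25 CPM in a G9a-Glp library. Of the 11 regulators and signals listed for the visceral endoderm, 10 were as low, at no more than 0.982 CPM in any of the 7 libraries. Gata6, Sox17 and Foxa2 were at 0 in 7 of 7 libraries and Hnf4a in 5 of 7, while Cited1 was at 449 to 600 CPM. Of the other listed genes, Folr1 lay between 138 and 389 CPM and Apoc2 between 0.982 and 58.7 CPM. The other 4 members had reads in 7 of 7 wild-type libraries. Apoe lay between 200 and 509 CPM (median 348), Amn between 5.92 and 15.7 CPM (median 11.1), Rbp4 between 3.43 and 9.29 CPM (median 4.67), and Afp between 0.333 and 6.79 CPM (median 1.08).

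Afp rose in the ExE of the G9a-Glp knockout. The 8 G9a-Glp ExE libraries lay between 12.9 and 112 CPM with a median of 40.2 CPM, and the 7 wild-type libraries at or under 6.79 CPM. The groups did not overlap, and 8 of 8 knockout libraries were above every wild-type library, as were 2.58% of the genes tested. The mean was 45.5 ± 31.2 CPM (SD, n = 8) against 2.14 ± 2.50 CPM (SD, n = 7). The log2 fold change was 4.36 ± 0.58 (SE; edgeR quasi-likelihood test, adjusted p = 2.37e-05 over 9228 genes). The call held under all 16 alternatives, with log2 fold changes of 3.72 to 4.50. Of the 3 members that passed the filter on low counts in this comparison 1 was called, where 15.1% of all genes were. Afp did not pass that filter in the Dnmt1, Rnf2 and cross comparisons of ExE, so it entered this one through its high libraries and the count carries no weight. Apoe (log2 fold change -0.42, edgeR adjusted p = 0.112) and Amn (0.33, edgeR adjusted p = 0.462) did not pass.

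Of the other secreted members, Ttr, Apoa1 and Apob stayed at or near 0 in these libraries, and Rbp4 was low. In G9a-Glp ExE, Ttr, Apoa1 and Apob each had a median of 0 CPM and highest values of 1.09, 2.19 and 1.09 CPM, no higher than 2.19 CPM in any library. Rbp4, with 0 to 2.61 CPM and a median of 0.916 CPM, was under every wild-type library (3.43 CPM and above) in 8 of 8, as were 1.02% of the genes tested. It did not pass the filter, and it was called lower without the filter, with DESeq2 and with all 6 groups in 1 fit. Trf lay between 0 and 4.25 CPM with a median of 0.733 CPM, and 3 of 8 libraries were above every wild-type library. The summed level of the 23 other visceral endoderm genes was 395 to 681 CPM in these libraries and 608 to 972 CPM in the wild type, and Cited1 fell (log2 fold change -1.53, edgeR adjusted p = 4.31e-05). The same knockout's Afp stood apart from every other ExE group, the next being Eed at 3.64 ± 2.16 CPM (SD, n = 10). In G9a-Glp epiblast, Afp lay between 1.16 and 74.1 CPM (median 24.2), overlapping the wild type (log2 fold change -0.52, edgeR adjusted p = 0.769). That sign goes with the 268 CPM of wild-type embryo 8: the wild-type median was 0.422 CPM, and without embryo 8 Afp did not pass the filter. The genes nearest to Afp over the ExE libraries, Efhc2, 9530053A07Rik and Gm16499 (each r = 0.89), were not visceral endoderm genes of the lists.

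**Figure D3:**
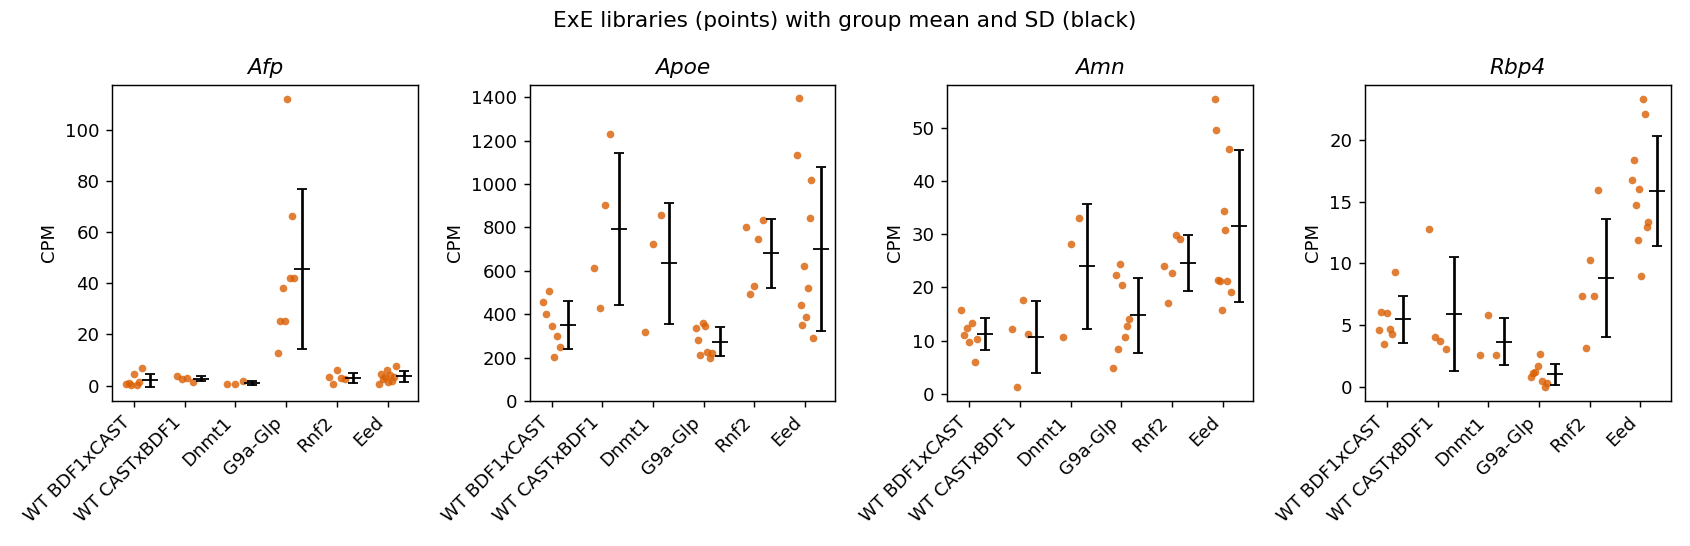
Afp, Apoe, Amn and Rbp4 in the ExE libraries of the 6 groups (CPM on a linear scale; points are libraries, black lines the mean and SD of the group). Afp is high in G9a-Glp alone (12.9 to 112 CPM), and Amn and Rbp4 are highest in Eed.

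Amn and Apoe were higher in the ExE libraries of both Polycomb knockouts. In the 5 ExE libraries labelled Rnf2, Amn was at 23.9, 17.1, 22.7, 29.9 and 29.2 CPM, in embryos 2, 4, 5, 6 and 7. All 5 lay above the highest wild-type library at 15.7 CPM, as did 8.57% of the genes tested. The mean was 24.6 ± 5.20 CPM (SD, n = 5) against 11.2 ± 3.09 CPM (SD, n = 7), with a log2 fold change of 1.08 ± 0.21 (SE, edgeR adjusted p = 0.00232). Apoe in the same libraries was at 801, 494, 529, 746 and 837 CPM, with 4 of 5 above the wild-type maximum of 509 CPM. Its mean was 681 ± 159 CPM (SD, n = 5) against 352 ± 111 CPM (SD, n = 7), with a log2 fold change of 0.90 ± 0.21 (SE, edgeR adjusted p = 0.00561). Rbp4, at 7.34, 3.12, 10.3, 7.32 and 16.0 CPM, overlapped the wild type and did not pass (log2 fold change 0.60, edgeR adjusted p = 0.262). Of the 3 members tested, 2 were called, where 22.2% of all genes were. Rnf2 transcript itself did not set these 5 libraries apart from the wild type. Their depth differed from that of the wild-type libraries, which held 2685835 to 3053690 reads. Embryo 5 held 1847681 reads and the others 6998279 to 10263280, and the part of depth was not tested.

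In the 10 Eed ExE libraries 3 of the 4 members tested were higher, where 40.8% of all genes were called. Amn lay between 15.7 and 55.4 CPM with a median of 26.1 CPM, and 10 of 10 libraries were above every wild-type library, as were 6.58% of the genes tested. Its log2 fold change was 1.30 ± 0.26 (SE, edgeR adjusted p = 0.000403). Rbp4 lay between 8.99 and 23.3 CPM with a median of 15.4 CPM, with 9 of 10 libraries above the wild-type maximum of 9.29 CPM. Its mean of 15.9 ± 4.49 CPM (SD, n = 10) against 5.47 ± 1.92 CPM (SD, n = 7) gave a log2 fold change of 1.37 ± 0.26 (SE, edgeR adjusted p = 0.00031). Apoe spread widely, from 291 to 1398 CPM with a median of 573 CPM, and 6 of 10 libraries were above the wild type (log2 fold change 0.81 ± 0.27 SE, edgeR adjusted p = 0.0216). With the summed level of the other visceral endoderm genes as a covariate, Amn and Rbp4 kept their calls, and Apoe kept its size and lost its call (log2 fold change 0.79, edgeR adjusted p = 0.0715). Cited1 made up 79.2% of that sum in Eed ExE. Afp, at 0.729 to 7.68 CPM, did not pass (log2 fold change 0.62, edgeR adjusted p = 0.401).

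Other visceral endoderm genes in Eed ExE moved in both directions. Of the 11 regulators and signals 2 passed the filter, Gata4 only through the Eed libraries, and both were higher: Gata4, an endoderm transcription factor, at 9.06 ± 3.73 CPM (SD, n = 10) against 0.245 ± 0.255 CPM (SD, n = 7; log2 fold change 4.81), and Cited1 (0.62). Among the uptake genes tested, Dab2, the adaptor of the cubilin receptor, and Tcn2, the vitamin B12 carrier, rose by 1.91 and 1.96 on the log2 scale. Folr1, a folate receptor, fell by 1.63. Dab2 was not among the 2 uptake genes that passed the filter in Rnf2 ExE, so it too entered here through the Eed libraries. Of the other secreted proteins 0 of 2 tested changed. Ttr, Apoa1 and Apob stayed at a median of 0, 0.287 and 0 CPM with highest values of 0.786, 1.56 and 0.786 CPM. Of 6 parietal endoderm markers tested, Col4a1, Col4a2 and Plat were higher (log2 fold changes 1.32, 1.51 and 5.00) and Pth1r was lower (-1.36). The median was 0.66 against 0.02 over all genes. The other ExE genotype comparisons tested 5 of these markers, and Plat passed the filter only through the Eed libraries. The count and the median therefore carry no weight. Their list summed to 141 to 366 CPM in Eed and 190 to 289 CPM in the wild type. Of 6 markers of ExE itself 4 fell in Eed, Elf5, Esrrb, Bmp4 and Fgfr2. The part of these shifts in the levels of Amn, Apoe and Rbp4 was not tested.

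The 3 Dnmt1 ExE libraries differed among themselves. Apoe was at 320, 726 and 857 CPM in embryos 1, 2 and 3, Amn at 10.7, 28.1 and 33.1 CPM, and Rbp4 at 2.55, 5.85 and 2.58 CPM. For both Apoe and Amn, embryo 1 lay within the wild-type range and embryos 2 and 3 above it. The Dnmt1 transcript was at 47.9, 34.5 and 5.16 CPM in embryos 1, 2 and 3, against 35.7 to 62.2 CPM in wild-type ExE. Embryo 1 thus lay within the wild-type range, embryo 2 just under it and embryo 3 far below it. No member passed (3 tested; Apoe log2 fold change 0.60, edgeR adjusted p = 0.153; Amn 0.84, edgeR adjusted p = 0.0884), where 18.5% of all genes did. At an unadjusted p under 0.05, Apoe and Amn would have counted. With embryo 1 left out, both were called, and DESeq2 called 0 with all 3 libraries.

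Between the 2 wild-type crosses Apoe alone of 3 members tested was called in ExE, where 1.06% of all genes were. It was at 615, 428, 904 and 1231 CPM in CASTxBDF1 embryos 1 to 4, so 3 of 4 libraries were above the BDF1xCAST maximum of 509 CPM (log2 fold change 1.16 ± 0.26 SE, edgeR adjusted p = 0.0464). The call was lost without embryo 1, 3 or 4, with library totals in place of TMM scaling, and with sex as a covariate. Amn, at 12.2, 1.34, 17.6 and 11.3 CPM, did not pass (log2 fold change -0.11, edgeR adjusted p = 0.949), nor did Rbp4 (0.06, edgeR adjusted p = 0.976). In epiblast edgeR called 0 of 7 members tested between the crosses, where 0.0103% of all genes were called, and DESeq2 called 0. Of the 7, 4 had an unadjusted p under 0.05 (Ttr, Apoa1, Apob and Rbp4), each with its highest level in CASTxBDF1 embryo 2.

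In epiblast Apoe was the member called in the most genotype comparisons, and wild-type embryo 8 bore on each of them. Its 6 libraries labelled Rnf2 lay between 249 and 632 CPM with a median of 340 CPM, against 67.9 to 139 CPM in 6 of the 7 wild-type libraries and 502 CPM in embryo 8. The log2 fold change was 1.40 ± 0.39 (SE, edgeR adjusted p = 0.0116), and 1.93 without embryo 8. The call held under all 21 alternatives. Of 3 members tested, 1 was called there, where 31.1% of all genes were. The Rnf2 epiblast libraries held 5549733 to 17653087 reads and the wild-type ones 1311863 to 3028267. Depth thus separated the groups, no alternative addressed it, and its part was not tested. In the 9 Eed libraries Apoe lay between 219 and 436 CPM with a median of 295 CPM (log2 fold change 0.87 ± 0.30 SE, edgeR adjusted p = 0.0304), with a change of 1.45 without wild-type embryo 8. Rbp4 lay between 7.10 and 19.7 CPM in Eed with a median of 10.6 CPM, against 2.52 to 15.2 CPM in the wild type (log2 fold change 0.87 ± 0.32 SE, edgeR adjusted p = 0.0354). Of 3 members tested, 2 were called in Eed, where 36.9% of all genes were, but leaving out single libraries gave 0 to 3 calls. Eed embryo 9 and wild-type embryos 1, 3, 6 and 7 each took the count to 0.

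The 3 Dnmt1 epiblast libraries held Apoe at 425, 399 and 594 CPM, each above 6 of the 7 wild-type libraries. Of 8 members tested, 0 were called with edgeR, where 13.9% of all genes were, and Apoe was closest (log2 fold change 1.43 ± 0.45 SE, adjusted p = 0.0513). It alone was called with DESeq2, and Apoe and Amn were called without wild-type embryo 8. In this comparison 1 member had an unadjusted p under 0.05. Embryo 1 of Dnmt1 had Afp at 59.5 CPM, Apoa1 at 32.8, Apob at 30.5 and Amn at 30.9 CPM, against 7.88, 5.26, 1.75 and 5.26 CPM in embryo 2, and its sum of other visceral endoderm genes was the highest of the 3.

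In epiblast labelled G9a-Glp, Apoa1 lay between 0.428 and 81.8 CPM with a median of 14.9 CPM, and 3 of 6 libraries were above every wild-type library. It was called (log2 fold change 2.91 ± 1.01 SE, edgeR adjusted p = 0.0342), the 1 call among 6 members tested, where 34.6% of all genes were called. The call rested on single libraries: it was lost without G9a-Glp embryo 2 or 5 and without wild-type embryo 1, 2, 3 or 7, and without wild-type embryo 4, 6 or 8 Apoa1 did not pass the filter. It was also lost with DESeq2, with all 6 groups in 1 fit, with the replicate block and with the visceral endoderm sum as a covariate. Embryos 2, 3 and 5 were high for Afp, Ttr and Apoa1 together. Apoe lay between 140 and 295 CPM with a median of 217 CPM, with no call except without wild-type embryo 8 and with the replicate block. The 4 other uptake genes tested were all higher in these libraries, Lrp2, Dab2, Tcn2 and Folr1, with log2 fold changes of 0.72 to 2.68.

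Ordered by mean, the levels of neighbouring groups overlapped for 8 of the 9 members in both tissues, Afp in ExE being the exception. For Apoe in ExE the order was CASTxBDF1 (794 ± 351 CPM, n = 4), Eed (701 ± 379, n = 10), Rnf2 (681 ± 159, n = 5), Dnmt1 (634 ± 280, n = 3), BDF1xCAST (352 ± 111, n = 7) and G9a-Glp (272 ± 66.9, n = 8; SD throughout). In epiblast it was Dnmt1 (473 ± 106 CPM, n = 3), Rnf2 (408 ± 156, n = 6), CASTxBDF1 (320 ± 434, n = 4), Eed (317 ± 70.5, n = 9), G9a-Glp (218 ± 66.8, n = 6) and BDF1xCAST (160 ± 153, n = 7; SD throughout). For Amn in ExE the order ran from Eed (31.5 ± 14.3 CPM, n = 10) over Rnf2 (24.6 ± 5.20, n = 5), Dnmt1 (24.0 ± 11.8, n = 3), G9a-Glp (14.7 ± 7.00, n = 8) and BDF1xCAST (11.2 ± 3.09, n = 7) to CASTxBDF1 (10.6 ± 6.76, n = 4; SD throughout). For Rbp4 in ExE, Eed came first (15.9 ± 4.49 CPM, n = 10) and G9a-Glp last (0.999 ± 0.839 CPM, n = 8; SD throughout).

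Between the tissues of the wild type, Apoe was higher in ExE. In the BDF1xCAST cross its log2 fold change was 1.23 ± 0.35 (SE, edgeR adjusted p = 0.00643), and 1.84 without embryo 8. It was the 1 call among 3 members tested, where 56.7% of all genes were called. This fit had no term for the embryo that both tissues came from. The Apoe call held under all 12 alternatives, among them a fit with the embryo as a block. In the CASTxBDF1 cross the call fell on Rbp4, 1 of 3 members tested where 45% of all genes were called. It was lower in ExE by a log2 fold change of -4.06 ± 1.40 (SE, edgeR adjusted p = 0.0305), a value that rested on the 399 CPM of the epiblast of embryo 2. Without embryo 2 it was 0.79, in the other direction, and with the embryo as a block Apoe was called and Rbp4 was not. Amn did not pass between the tissues of BDF1xCAST (log2 fold change 0.10 ± 0.73 SE, edgeR adjusted p = 0.913) and was called higher in ExE without embryo 8.

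The reads of each parental allele gave a second view of Apoe, in which ExE and epiblast differed in every wild-type embryo. In ExE the BDF1 allele held 77.6 ± 1.98% of Apoe reads (SD, n = 7, range 75.0 to 81.0%) in BDF1xCAST embryos, where it is maternal, and 76.4 ± 3.99% (SD, n = 4, range 70.7 to 79.7%) in CASTxBDF1 embryos, where it is paternal. The allele with more reads was thus of the same strain in both crosses, whichever parent gave it. In epiblast the BDF1 share was 49.6 ± 6.27% (SD, n = 7, range 44.5 to 63.4%) and 56.3 ± 3.05% (SD, n = 4, range 52.4 to 59.8%). Within an embryo the ExE share was higher by 28.0 ± 6.49 percentage points in BDF1xCAST (SD, 7 of 7 embryos; two-sided exact permutation test by sign, p = 0.0156, the smallest this n allows) and by 20.1 ± 4.43 points in CASTxBDF1 (SD, 4 of 4 embryos; exact permutation p = 0.125, again the smallest). Over both crosses it was higher in 11 of 11 embryos, by 25.1 ± 6.88 points (SD; exact permutation p = 0.000977, the smallest). These 3 tests were chosen after the values were seen. Among knockout embryos with both tissues it was higher for 3 of 3 (Dnmt1), 5 of 5 (G9a-Glp), 3 of 3 (Rnf2) and 9 of 9 (Eed).

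**Figure D4:**
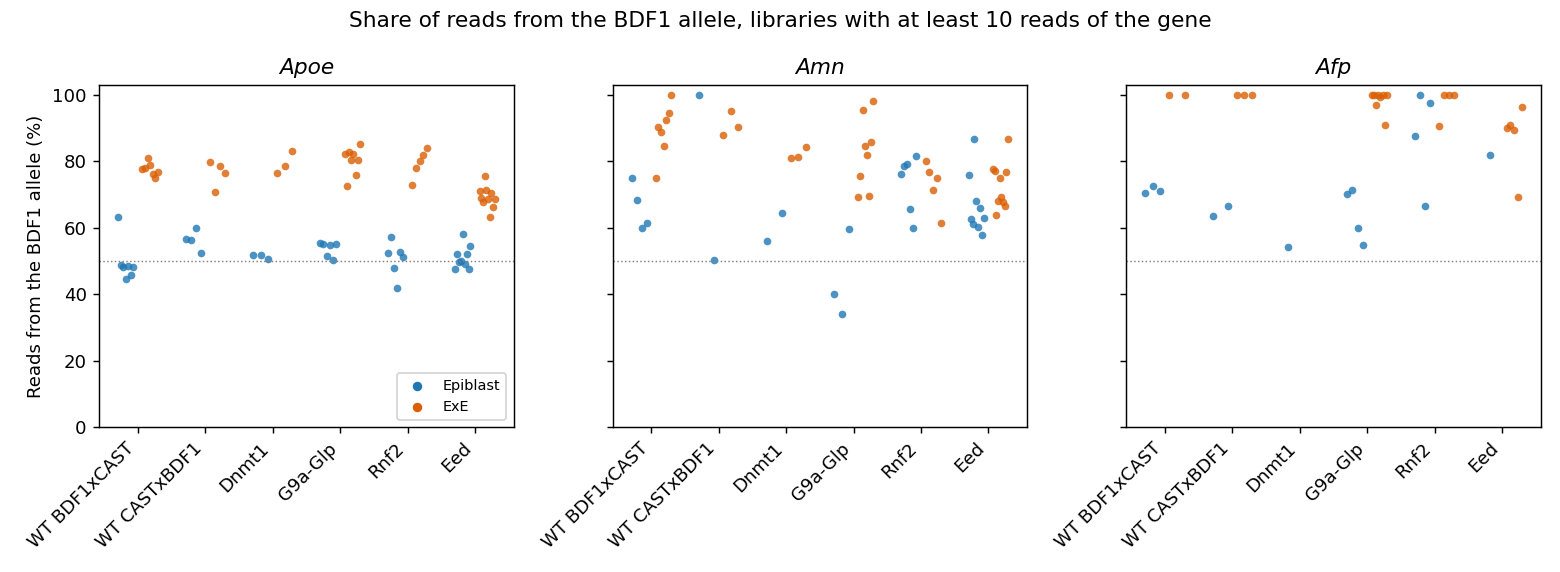
Share of Apoe, Amn and Afp reads from the BDF1 allele (percent) by library in epiblast and ExE, for libraries with at least 10 reads of the gene. Each point is a library, and the dotted line marks 50%. The wild-type Apoe shares run from 70.7 to 81.0% in ExE and from 44.5 to 63.4% in epiblast.

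No member passed the test for a parental bias in the wild type. Of 1 member tested in epiblast 0 were called, where 0.319% of all genes were, and Apoe gave a log2 maternal to paternal ratio of -0.21 ± 0.08 (SE, edgeR adjusted p = 0.928; unadjusted p = 0.0213). In ExE 0 of 3 tested were called, where 0.844% of all genes were, and 0 had an unadjusted p under 0.05. The Apoe ratio in ExE was 0.05 ± 0.06 (SE, edgeR adjusted p = 0.936), that of Amn -0.24 ± 0.33 (SE, adjusted p = 0.954) and that of Rbp4 0.63 ± 0.48 (SE, adjusted p = 0.865).

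In Eed ExE the allele shares of Apoe and Amn were closer to equal than in the wild type. The maternal (BDF1) share of Apoe was 69.2 ± 3.31% (SD, n = 10, range 63.3 to 75.6%) against 77.6 ± 1.98% in the wild type (SD, n = 7). The log2 ratio changed by -0.64 ± 0.09 (SE, edgeR adjusted p = 5.24e-05). Amn went from 89.4 ± 7.95% (SD, n = 7, range 75.0 to 100%) to 72.9 ± 6.93% (SD, n = 10, range 63.8 to 86.6%), a log2 change of -1.48 ± 0.39 (SE, edgeR adjusted p = 0.0338). These were 2 calls among 3 members tested, where 2.65% of all genes were called. Rbp4 did not pass (log2 change -1.09 ± 0.63 SE, edgeR adjusted p = 0.503). Split by allele, the BDF1 allele of Apoe was at 274 ± 92.4 CPM in the wild type (SD, n = 7) and 484 ± 262 CPM in Eed (SD, n = 10), and the CAST allele at 77.1 ± 19.7 and 217 ± 119 CPM. For Amn the BDF1 allele was at 9.90 ± 2.32 and 23.2 ± 11.5 CPM and the CAST allele at 1.31 ± 1.27 and 8.29 ± 3.26 CPM.

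In the ExE libraries labelled Rnf2 the Amn maternal share was 72.9 ± 7.19% (SD, n = 5), but the change missed the threshold (log2 change -1.48 ± 0.45 SE, edgeR unadjusted p = 0.00369, adjusted p = 0.149), and 0 of 3 members tested were called where 0.922% of all genes were. In G9a-Glp ExE the maternal share was 80.2 ± 4.03% for Apoe and 82.5 ± 10.8% for Amn (SD, n = 8), and in Dnmt1 79.4 ± 3.35% and 82.2 ± 1.92% (SD, n = 3). In G9a-Glp 0 of 2 members tested were called, where 1.1% of all genes were, and in Dnmt1 0 of 2, where 0.856% were. None of these had an unadjusted p under 0.05. In the epiblast comparisons no member was called: Dnmt1 had 0 of 1 tested (0.908% of all genes), G9a-Glp 0 of 5 (1.79%), Rnf2 0 of 4 (0.696%) and Eed 0 of 3 (1.06%). None of these epiblast members had an unadjusted p under 0.05.

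Afp reads in wild-type and G9a-Glp ExE came almost wholly from the BDF1 allele, and those of the epiblast libraries where Afp was high came from both alleles. In G9a-Glp ExE 979 of 1004 reads were of the BDF1 allele, with a share of 98.4 ± 3.22% (SD, n = 8, range 90.9 to 100%). In wild-type ExE 41 of 42 reads were BDF1 in BDF1xCAST and 39 of 39 in CASTxBDF1, where 0 CAST reads allow a share of up to 7.69%. The allele that held the reads was therefore maternal in the first cross and paternal in the second. In epiblast the BDF1 share of Afp was 63.5% in CASTxBDF1 embryo 2 (exact binomial 95% interval 60.6 to 66.4%, 1069 reads) and 71.0% in BDF1xCAST embryo 8 (66.0 to 75.7%, 352 reads). In the 4 epiblast libraries labelled G9a-Glp with at least 10 reads it was 54.7 to 71.2%. The other groups did not all divide this way. In Eed ExE the BDF1 allele held 98 of 109 reads, and 69.2 to 96.3% in the 5 libraries with at least 10 reads. In ExE it held 88 of 91 reads in Rnf2 and 4 of 6 in Dnmt1. In epiblast labelled Rnf2 it ranged from 66.7 to 100% over 4 libraries, which overlaps ExE. These intervals cover counting error only, since reads without molecular identifiers are not independent molecules, and the difference between the tissues was not tested.

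Receptors and partners of the secreted members were followed through a list of 14 genes. In Rnf2 epiblast, where Apoe rose, 5 of 10 tested were higher and 1 lower, where 31.1% of all genes were called, with a median log2 fold change of 0.62 against 0.00108 over all genes. Among them Lrp1, a receptor of Apoe-carrying lipoproteins, rose by 1.59, its chaperone Lrpap1 by 1.12 and the iron exporter Slc40a1 by 1.55 on the log2 scale. Tfrc, the transferrin receptor, fell by 0.50. In Eed epiblast 4 of 10 were higher (among them Lrpap1 0.67, Scarb1 0.75, Slc40a1 0.87) and 0 lower, where 36.9% of all genes were called, with a median of 0.63 against -0.02 over all genes. In epiblast labelled G9a-Glp 2 of 10 were higher (among them Lrp1 1.91) where 34.6% of all genes were called, and in Dnmt1 1 of 11 where 13.9% were. These shares are close to or below those of all genes except in Rnf2. The 4 epiblast comparisons share their wild-type libraries, and each Rnf2 epiblast library was deeper than all of those.

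In ExE the list split. Scarb1, the receptor of high-density lipoprotein, was higher in Dnmt1 (log2 fold change 1.22), Rnf2 (0.82) and Eed (0.87). Slc40a1 was lower in G9a-Glp (-1.51), Rnf2 (-2.29) and Eed (-1.06), and Tfrc was lower in Rnf2 (-0.79) and higher in Eed (0.39). Of 8 genes tested in each, Dnmt1 had 1 higher and 1 lower, G9a-Glp 0 and 3, Rnf2 1 and 3, and Eed 2 and 2, where 18.5%, 15.1%, 22.2% and 40.8% of all genes were called. The lists for blood cells and macrophages had 0 genes that passed the filter in any comparison, with sums of at most 11.4 CPM in a library, and markers of the decidua summed to at most 38.3 CPM.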

How the data were processed

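Per the file headers, the authors deposited, for each gene and library, the count of reads over polymorphisms with both alleles summed and no normalization, a rounded allelic ratio and an allelic score, a signed -log10 binomial p-value. Per the submitters' processing notes, STAR 2.5.0, HTSeq and mm10 were used, with no role given. A value listed as NA was taken as 0 reads. Allele counts were the whole numbers that fitted ratio and score, and 712264 of 715156 scored values (99.6%) matched within 0.01. Libraries are single embryos per the labels, no 2 libraries were identical, and batches of sequencing are not given in the sources used here.

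Levels were tested with edgeR 4.0.16 (quasi-likelihood, TMM scaling, filterByExpr) in R 4.3.3, two-sided, on the libraries of the 2 groups compared, with Benjamini-Hochberg adjustment over all genes tested and a threshold of 0.05. SE is the size of the log2 fold change over the root of F. Allele counts were tested with a term per library, for genes with at least 10 reads in 3 libraries of each group, and shares are given for libraries with at least 10 reads. DESeq2 1.42.0 and other settings were alternatives. Both edgeR procedures were tested on simulated data. The members and lists were chosen with earlier results of these data known. All 9 members are named, and of other genes the listed ones that were called and, for likeness, the 3 highest r among genes with a mean of at least 5 CPM. Embryo numbers pair the tissues of 1 embryo per the labels (r of deviations 0.0396 to 0.427 in BDF1xCAST and 0.0642 to 0.351 in CASTxBDF1). For Eed embryos 8 to 10 the numbers in the titles pair the tissues otherwise than the embryo tag, and the tag was used. Between genotypes or crosses they are a shared number only. A bisulfite sample was not analysed here. Some genes of the list of receptors and partners are counted but not reported here by name.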

Additional observations from a re-analysis of the deposited data

Results flagged for a closer look

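Of 62 sets of libraries (1 member in 1 group of 4 to 10 libraries), 21 held a library far from the rest, 20 of them in epiblast. The gap to the next library was divided by the range of the group and set against Dixon's critical value. Sets whose highest library held under 10 reads were left out. That critical value assumes normally distributed levels, which skewed CPM are not, and the sets share libraries. The flags therefore cannot be set against a rate by chance. In CASTxBDF1 epiblast, embryo 2 was such a library for 9 of 9 members, at 408 CPM for Afp, 727 for Ttr, 461 for Apoa1, 62.1 for Apob, 971 for Apoe, 185 for Amn, 171 for Cubn, 399 for Rbp4 and 24.8 CPM for Trf. In BDF1xCAST epiblast, embryo 8 was one for 7 members, at 268 CPM for Afp, 53.4 for Ttr, 13.7 for Apob, 502 for Apoe, 69.4 for Amn, 22.1 for Cubn and 15.2 CPM for Rbp4. In epiblast labelled Rnf2, embryo 6 had Apoa1 at 24.1 and Amn at 40.9 CPM. In epiblast labelled G9a-Glp, embryo 5 had Ttr at 80.4 CPM, and in Eed epiblast, embryo 6 had Apoa1 at 8.00 CPM. The 1 case in ExE was Rbp4 in CASTxBDF1 embryo 1, at 12.8 CPM against 4.03 CPM in the next library.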

How the results depend on the processing

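The number of members called moved as follows (with 24 such counts and 98 fits that left out a library). Dnmt1 epiblast, 0 in the report: 1 (Apoe) with library totals, without the filter on low counts, with DESeq2, with sex, with the visceral endoderm sum as a covariate and with all 6 groups in 1 fit, 5 with the replicate block (a shared number only), and 0 to 2 without 1 library. G9a-Glp epiblast, 1 (Apoa1): 0 with DESeq2, the visceral endoderm covariate and 1 fit, 0 to 1 without 1 library, and with the replicate block 1, which is Apoe in place of Apoa1 (adjusted p = 0.089). Rnf2 epiblast, 1: 3 without the filter and in 1 fit, Afp and Ttr being added as lower, 2 with DESeq2 (Amn added), and 1 to 2 without 1 library. Eed epiblast, 2: 4 without the filter (Afp and Ttr lower) and with DESeq2 (Afp lower, Amn higher), 3 with the visceral endoderm covariate (Amn added), 1 with the replicate block (Rbp4 lost), 2 in 1 fit (Apoe, and Afp as lower, Rbp4 being lost), and 0 to 3 without 1 library. The cross in epiblast, 0: 4 without the filter and 1 in 1 fit. Dnmt1 ExE, 0: 2 with library totals, and 0 to 2 without 1 library. G9a-Glp ExE, 1: 2 without the filter, with DESeq2 and in 1 fit, Rbp4 being added as lower. Rnf2 ExE, 2: 1 with the replicate block, Amn being lost (log2 fold change 1.28, adjusted p = 0.0539). The cross in ExE, 1: 0 with library totals, the replicate block and sex, and 0 to 1 without 1 library. ExE against epiblast in BDF1xCAST, 1: 6 without the filter, 7 with DESeq2, and 1 to 2 without 1 embryo. In CASTxBDF1, 1: 9 without the filter, 0 with DESeq2, and 0 to 2 without 1 embryo, and the log2 fold change of Rbp4 ran from -5.19 to 0.79 without 1 embryo, turning at embryo 2. Eed ExE kept 3 calls except for 2 with the visceral endoderm covariate.

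The 2 Eed changes in allele share became 1 with at least 50 reads per library, where only Apoe was tested. The relation of Rbp4 with other visceral endoderm genes in ExE turned to r = 0.15 with the median of the deviations. The members passing in ExE numbered 0 with a pseudocount of 10, 2 in the wild type alone and 2 with that median. In the wild type alone they were Afp (r = -0.69) and Rbp4 (r = -0.91), both negative. With that median they were Apoa1 (r = 0.50) and Apob (r = 0.43), both positive. The causes were not tested. The covariate and the fits without a wild-type epiblast library were chosen after seeing the data. At this depth Ttr, Apoa1, Apob, Cubn and Trf had few reads in ExE and did not pass the filter between ExE groups. Without the filter and with DESeq2, 0 of these 5 were called between ExE groups.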
